A study of Mus musculus with 27 samples.

Results

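The first day on which the wild-type line TET_WT left 2i/LIF was examined, from mouse embryonic stem cells at D0 to epiblast-like cells at D1. Methylation came from whole-genome bisulfite sequencing and was deposited as a percent in windows that the table names as holding 100 CpGs. The windows described are all 422141 autosomal windows with a value in each of the 27 libraries, of 453245 windows in the table, and they were chosen without regard to how they changed. The comparison rests on 6 libraries, 3 at D0 and 3 at D1. A gene's level is the mean of the windows that overlap its body, and 20358 genes were tested.

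TET_WT is the unmodified parent of TET_KO, a line in which Tet1, Tet2 and Tet3 are all knocked out, and DNMT_WT is the unmodified parent of a Dnmt1, Dnmt3a and Dnmt3b knockout. All 3 lines were grown in 2i/LIF as embryonic stem cells (D0) and were taken as epiblast-like cells 1 and 2 days later (D1 and D2), with 3 libraries for each line and day. TET_KO and DNMT_WT are used here only to show where the first day of TET_WT differed. Strain, clone numbers and the medium of D1 and D2 are not given in the sources used here. The labels do not say whether the replicates were separate cultures, so p-values refer only to the spread among these samples, which may be technical. No RNA was analysed here, so the cell type could not be checked against marker genes, and the deposited percentages carry no read depth.

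Mouse embryonic stem cells in 2i/LIF are held in a naive state by an inhibitor of the ERK pathway kinase MEK, an inhibitor of GSK3 and the cytokine LIF, and their genome is known to be poorly methylated. When the inhibitors are withdrawn, the de novo enzymes Dnmt3a and Dnmt3b add methyl groups to cytosines of CpG sites, Dnmt1 with Uhrf1 copies them at replication, and the Tet enzymes oxidise them. CpG islands, the dense clusters of CpG sites at many gene starts, are known to stay largely unmethylated throughout.

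The sequences upstream of 7 gene starts are shown for the range of CpG density they span between starts that gained and starts that did not, with each CpG in capitals. They are the 250 bases before the start, 5′ to 3′ on the gene's own strand, from RefSeq on GRCm38.p6. Among the 30514 RefSeq starts that lie in a tested window, the median such stretch held 6 CpG sites, with quartiles of 2 and 16. The first 4 come from genes that gained early, chosen after their values were seen: Cd180 at chr13:102693297-102693546 on the plus strand with 3 CpG sites, Spic at chr10:88683024-88683273 on the minus strand with 1, Ffar2 at chr7:30823776-30824025 on the minus strand with 9, and Pramel7 at chr2:87492419-87492668 on the minus strand with 1.
Cd180: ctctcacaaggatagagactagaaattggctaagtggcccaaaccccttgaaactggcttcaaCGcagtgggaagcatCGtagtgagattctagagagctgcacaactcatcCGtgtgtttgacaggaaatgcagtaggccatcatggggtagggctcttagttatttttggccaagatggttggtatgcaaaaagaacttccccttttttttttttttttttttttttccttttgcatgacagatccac
Spic: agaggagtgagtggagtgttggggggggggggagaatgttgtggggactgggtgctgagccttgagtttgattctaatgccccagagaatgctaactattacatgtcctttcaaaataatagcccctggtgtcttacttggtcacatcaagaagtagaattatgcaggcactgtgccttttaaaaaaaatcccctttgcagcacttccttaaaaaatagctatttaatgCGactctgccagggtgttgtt
Ffar2: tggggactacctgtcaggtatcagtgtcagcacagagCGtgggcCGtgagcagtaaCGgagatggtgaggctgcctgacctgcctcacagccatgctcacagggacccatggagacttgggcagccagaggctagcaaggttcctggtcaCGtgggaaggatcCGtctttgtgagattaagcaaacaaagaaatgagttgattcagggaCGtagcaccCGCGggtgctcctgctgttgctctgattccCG
Pramel7: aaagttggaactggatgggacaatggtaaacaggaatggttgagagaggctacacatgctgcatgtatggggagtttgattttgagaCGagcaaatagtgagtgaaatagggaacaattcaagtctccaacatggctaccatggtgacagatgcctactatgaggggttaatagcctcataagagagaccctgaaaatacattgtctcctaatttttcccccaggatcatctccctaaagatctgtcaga
The window that holds the Cd180 start measured 7.76%, 5.04% and 7.67% in the D0 libraries and 21.8%, 19.9% and 23.9% in the D1 libraries. That of Spic measured 4.49%, 6.49% and 6.24% and then 25.9%, 17.5% and 23.8%. That of Ffar2 went from 9.08%, 8.40% and 5.41% to 33.6%, 20.9% and 33.2%. In these windows, and in the Pramel7 window described with its gene, every D1 library lay above every D0 library.

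The other 3 come from starts that stayed almost free of methylation, also chosen after their values were seen: Dusp6 at chr10:99262981-99263230 on the plus strand with 16 CpG sites, Sox2 at chr3:34649745-34649994 on the plus strand with 27, and Klf2 at chr8:72318812-72319061 on the plus strand with 29.
Dusp6: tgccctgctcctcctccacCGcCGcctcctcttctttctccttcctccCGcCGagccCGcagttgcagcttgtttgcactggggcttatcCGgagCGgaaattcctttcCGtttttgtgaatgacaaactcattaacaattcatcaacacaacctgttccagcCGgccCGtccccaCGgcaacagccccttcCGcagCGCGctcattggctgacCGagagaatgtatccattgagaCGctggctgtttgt
Sox2: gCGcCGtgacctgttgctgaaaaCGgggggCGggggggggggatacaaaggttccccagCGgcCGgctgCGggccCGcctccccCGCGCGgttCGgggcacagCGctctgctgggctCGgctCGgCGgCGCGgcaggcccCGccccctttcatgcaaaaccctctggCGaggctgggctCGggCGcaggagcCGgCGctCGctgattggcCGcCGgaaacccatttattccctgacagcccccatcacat
Klf2: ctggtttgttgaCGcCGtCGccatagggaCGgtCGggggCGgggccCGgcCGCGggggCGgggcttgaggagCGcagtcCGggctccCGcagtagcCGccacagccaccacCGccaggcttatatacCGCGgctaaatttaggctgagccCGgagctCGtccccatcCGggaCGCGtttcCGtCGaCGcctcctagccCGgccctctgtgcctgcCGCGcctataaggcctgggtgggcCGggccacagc
The window at the Dusp6 start measured 0%, 0% and 1.65% at D0 and 0%, 0% and 1.85% at D1. That of Sox2 measured 0%, 1.15% and 0% and then 0%, 0.922% and 0%. That of Klf2 measured 0.266%, 0% and 0% and then 0%, 0.379% and 0%. The Sox2 and Klf2 windows begin at 34649912 and 72318884, inside the printed stretches. The printed bases before those positions were therefore not in the windows measured. In all 3 the days overlapped, and the fitted differences were 0.0663 ± 0.460, -0.0758 ± 0.390 and 0.0377 ± 0.338 points (SE). Over all windows that hold a start, the CpG count was taken in the 300 bases around it. Windows whose start held 0 to 4 CpG sites gained 7.88 points on average, those with 5 to 9 gained 7.53, those with 10 to 19 gained 3.33 and those with 20 or more gained 0.747. By the call rule given with the window counts, a rise of at least 10 points was called in 2423 of 9924 windows of the first class (24.4%), 1306 of 4993 of the second (26.2%), 266 of 4416 of the third (6.02%) and 14 of 7027 of the fourth (0.199%), against 4009 of all 26360 windows with a start (15.2%).

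The whole distribution moved up on the first day. The mean over windows was 24.9%, 25.7% and 25.5% in the D0 libraries and 34.2%, 31.3% and 34.2% in the D1 libraries, so the days did not overlap. The means were 25.4% ± 0.386 and 33.2% ± 1.70 (SD, n = 3), a difference of 7.84 ± 1.00 points (SE). The exact permutation test, two-sided, gave p = 0.1, and no lower value can be reached with 3 libraries on each side. The median library value moved from 25.3% to 33.8%, a shift of 8.52 points. At D1, replicate 2 stood lower than the other two, and without it the shift of the median was 9.59 points. The second day added 19.5 points to the mean.

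**Figure D1:**
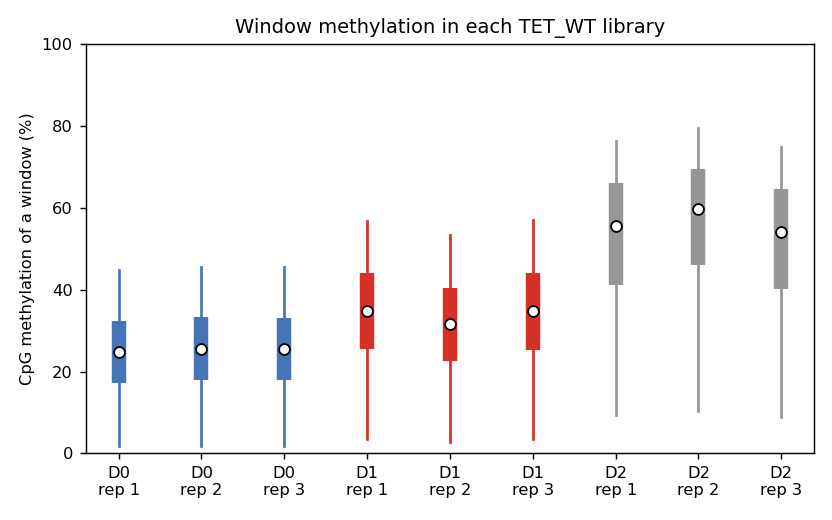
Methylation of the 422141 autosomal windows in each TET_WT library, in percent (vertical axis), by day and replicate (horizontal axis); circles are medians, thick bars span the quartiles and thin lines the 5th to the 95th percentile. The medians are 24.7, 25.6 and 25.4 at D0 and 34.9, 31.6 and 34.8 at D1, with replicate 2 the lowest of the D1 libraries.

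Nearly every part of the genome shared in the rise, and few windows lost methylation. Differences were tested for each window with limma, and calls required an adjusted p (Benjamini-Hochberg) below 0.05 together with a change of 10 points or more. By this rule 118000 windows rose, 28% of those tested, and 28 windows fell, 0.00663%. At any size 346986 rose, 82.2%, and 165 fell, 0.0391%. The middle of the distribution of differences was narrow, with a median of 7.79 points, quartiles of 5.42 and 10.4, and 5th and 95th percentiles of 0.684 and 14.2. All 3 D1 libraries lay above all 3 D0 libraries in 342346 windows (81.1%) and below them in 439 (0.104%).

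To see which windows moved more or less than their library as a whole, the median over windows was taken off each library. A value relative to the median is the percent less that median, and a window at 0% on both days therefore lies at -8.52 points. By the same thresholds 1187 windows were higher relative to the median, 0.281%, and 745 were lower, 0.176%. The number depended on 1 library: without replicate 2 of D1 there were 2620 higher and 2725 lower. The 1187 windows had a median level of 27.2% at D0, 47.3% at D1 and 72.4% at D2, against 56.5% at D2 over all windows. They were short, with a median length of 3427 bp against 4949 bp, and 69.6% of them lay in a protein-coding gene against 52.4% of all windows, while 3.20% held a start against 6.24%. Chromosome 11 had the largest share of its windows among them, 0.451%, followed by chromosome 17 with 0.420%, and chromosome 14 had the smallest, 0.104%. Of the 745 windows lower relative to the median, the median change in percent was -3.11 points, 128 were past the adjusted p as losses in percent, and 629 stood above their D0 level by D2.

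The size of the gain depended on where a window started. Windows below 5% at D0 gained 1.06 ± 0.135 points (SE, limma on class means), those at 5 to 10% gained 4.93 ± 0.650, those at 10 to 20% gained 6.70 ± 1.03 and those at 20 to 30% gained 8.51 ± 1.02. The gain was largest at 30 to 40%, with 9.71 ± 0.907 points, was 9.35 ± 0.862 at 40 to 60%, and was 6.39 ± 0.831 above 60%. Against the median shift, the classes below 20% and the class above 60% were lower and those from 30 to 60% were higher, all past the adjusted p, while windows at 20 to 30% differed by -0.01 points from it (limma adjusted p = 0.824). Class membership used the D0 libraries that also enter the difference. With the class set by replicate 1 of D0 alone and the gain taken from the other D0 libraries, the values were 1.07, 4.79, 6.45, 8.29, 9.59, 9.36 and 7.15 points in the same order.

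The gain also differed with window length, which at a fixed number of CpGs is the inverse of CpG density. Windows under 1 kb, the most CpG-dense, gained 0.262 ± 0.0948 points from a level of 1.402%. The gain was 7.22 ± 1.10 at 1 to 3 kb, highest at 3 to 5 kb with 9.31 ± 0.956, and then 8.31 ± 0.990 at 5 to 8 kb, 6.48 ± 1.09 at 8 to 16 kb and 5.56 ± 0.974 above 16 kb. Among windows that all began at 20 to 30%, the gain was 10.2 points at 1 to 3 kb, 9.62 at 3 to 5 kb, 8.08 at 5 to 8 kb and 6.80 at 8 to 16 kb. The sparsely filled classes at the ends did not continue that order, with 6.08 points in 44 windows under 1 kb and 6.90 in 186 windows over 16 kb. Windows inside protein-coding genes but away from a start gained 8.47 points and those outside genes 7.56. The autosomes ranged from 7.42 points on chromosome 14 to 8.37 on chromosome 11, in percent.

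**Figure D2:**
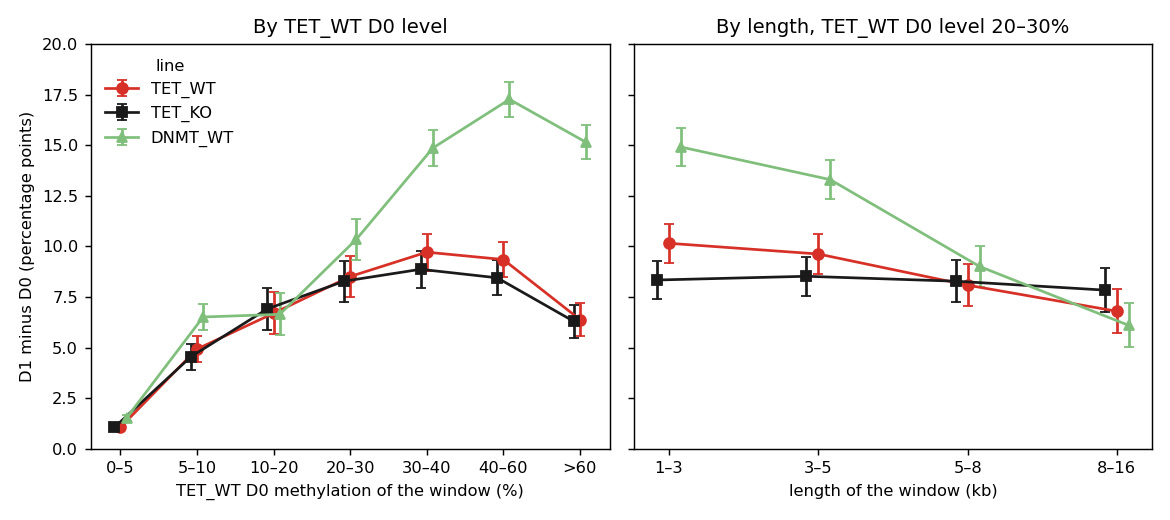
Difference D1 minus D0 in percentage points (vertical axis) for classes of windows by TET_WT D0 level in percent (left) and, among windows at 20 to 30%, by length in kb (right), for TET_WT (circles), TET_KO (squares) and DNMT_WT (triangles); bars are SE from limma with 3 libraries a group. In TET_WT the gain peaks at 9.71 points in windows of 30 to 40%, and over the 4 length classes drawn it drops from 10.2 to 6.80 points.

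In percent, the first day was the smaller step at most windows. In the 331638 windows that gained at least 20 points by D2, the first day made up a median of 28.4% of the gain, with quartiles of 23.4% and 33.4%, and reached 50% in 2658 windows (0.801%). A direct test of the first step against the second called 257467 windows with a smaller first step, 61%, and 176 with a larger one, 0.0417%. Relative to the median, 45245 windows had a larger first step, 10.7%, and 7625 a smaller one, 1.81%. Those counts do not show larger gains on the first day, since the median moved 8.52 points that day and 22.6 on the second. A window that stays near 0% on all days can pass by subtraction alone. Windows under 1 kb lay -8.26 points from the median shift on the first day and -21.7 on the second. In percent they gained 0.262 and 0.913 points. The D1 libraries enter both steps with opposite sign, so a D1 value that is high by chance raises the first and lowers the second. Without replicate 2 of D1 the larger first steps in percent numbered 334. Of the windows with the largest excess of the first step, one, at chr12:63119694-63120559, measured 60.5%, 43.2% and 49.2% at D0, 65.0%, 72.3% and 74.0% at D1, and 50.7% ± 8.84 at D2. A second, at chr13:85469438-85470230, measured 24.8%, 17.9% and 30.0% at D0, between 39.9% and 46.3% at D1, and 24.9% ± 9.07 at D2. Their D1 libraries lay above all their D0 libraries, in windows named only where the days did not overlap. Their D2 means were close to D0.

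The window with the largest rise in the genome completed it within the first day. At chr16:58648871-58654432, 10468 bp from Ftdc2, it measured 17.3%, 18.3% and 16.03% at D0 and 61.1%, 45.2% and 45.3% at D1, a rise of 33.3 ± 3.74 points (SE) (limma adjusted p = 4.6e-07), and stood at 48.5% ± 2.69 at D2. Its first step exceeded its second by 35.3 points (limma adjusted p = 9.7e-05). No D1 library overlapped D0, as the rule that named the window required, and replicate 1 of D1 was well above the other two.

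The other leading windows kept gaining on the second day. In the body of Auts2, a gene of neuronal development, the window chr5:131440104-131442349 went from 22.2%, 21.5% and 23.0% to 51.1%, 39.2% and 57.6%, and to 71.4% ± 2.78 at D2. A window in Dym, a gene of the Golgi apparatus on chromosome 18, went from 6.96%, 7.94% and 6.59% to 34.3%, 30.3% and 37.4% and reached 75.5% ± 4.48. Windows of 1 stretch of chromosome 17 appeared 3 times among the 12 largest rises. The first, chr17:6222320-6226325 in Tulp4, rose from 30.3%, 31.6% and 28.4% to 59.5%, 49.6% and 58.5%. The second, chr17:6273216-6276094 in Tmem181a, rose from 18.5%, 23.6% and 29.7% to 54.2%, 46.2% and 54.8%. The third, chr17:6452517-6455785, lies 12017 bp from Dynlt1b and rose from 23.7%, 24.0% and 23.5% to 47.9%, 45.5% and 54.5%. The days did not overlap in any of these windows, as the rule that named them required.

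Losses were few, and 18 of the 28 windows that fell stood above their D0 level at D2. The largest was in Lhfp, at chr3:53133198-53136002, where 52.7%, 53.0% and 43.9% became 30.6%, 36.6% and 27.3%, a fall of -18.3 ± 3.77 points (SE) (limma adjusted p = 0.00017), with 48.2% ± 6.32 at D2. A window in Clca3b, a chloride channel accessory gene, at chr3:144829171-144829973 fell from 21.6%, 22.0% and 39.9% to 12.5%, 9.49% and 13.9%. At chr15:44654363-44657160, 12825 bp from Ebag9, 68.5%, 70.2% and 68.1% became 54.6%, 55.6% and 59.8% before reaching 82.7% ± 4.40. In Slc24a3, which encodes a cation exchanger, chr2:145623915-145626658 went from 52.5%, 43.0% and 50.3% to 32.8%, 36.4% and 42.1% and then to 68.3% ± 9.72. All 4 had D1 libraries below their D0 libraries, as the rule that named them required, and the last 2 ended above their D0 level.

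Some windows that moved ahead of their library lay side by side. Of the 20341 windows higher by at least 5 points relative to the median, 4.82%, 7091 lay in runs of neighbours (34.9%). The longest run had 9 windows and covered 37.0 kb of Rftn1, a lipid raft gene, at chr17:50010317-50047324. Its mean was 22.4%, 24.5% and 26.5% at D0 and 43.9%, 38.8% and 43.5% at D1, and 70.9% at D2. Runs of 8 windows lay in Gli2, a transcription factor of Hedgehog signalling (32.2% to 49.4%), in Fam53b (21.5% to 39.7%) and in Tbcel, a tubulin cofactor relative (18.7% to 37.1%). Runs of 7 included Smad3 with Aagab (36.5% to 53.8%), Ntn1, the guidance factor netrin (24.0% to 41.7%), Acly, which makes acetyl-CoA from citrate (24.2% to 40.4%), and Wnt3 with Nsf (31.5% to 47.6%). The runs were picked by the first-day difference, so these values describe them and test nothing.

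At the scale of 1 Mb, 323 of 2408 bins were higher than the library median shift (13.4%) and 1470 were lower (61%), at adjusted p under 0.05 in limma. A bin is a mean of windows, while the reference is the shift of the median. The mean relative difference over all windows was -0.681 points, and the median bin lay at -0.907. The counts can therefore not be read as shares of the genome ahead and behind. The bin gains ran from 4.15 to 11.3 points. The highest bins held Tle3, Kif23 and Paqr5 on chromosome 9 from 61 Mb (27.5% to 38.8%), Tenm4 and Nars2 on chromosome 7 from 96 Mb (32.9% to 44.1%), and Magi1 and Lrig1 on chromosome 6 from 94 Mb (29.3% to 40.5%). Among the lowest, the bin of Slitrk6, a neuronal adhesion gene, on chromosome 14 from 110 Mb went from 14.8% to 18.9%, and that of Col11a1 and Olfm3 on chromosome 3 from 114 Mb from 14.8% to 18.9%. The bin of Zic1 and Zic4, factors of the neural plate, on chromosome 9 from 91 Mb went from 16.4% to 20.6%.

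Averaged over gene bodies, the rise was almost universal. By the threshold of 10 points 2794 genes rose, 13.7%, and 1 fell, 0.00491%. At any size 19377 rose, 95.2%, and 3 fell, 0.0147%, among them Pcbp1 and Mrps34. The count at 10 points was 5627 without replicate 2 of D1, 1748 without replicate 1 and 1754 without replicate 3. On the scale relative to the median, where genes were called at 5 points, 98 genes were higher, 0.481%, and 1947 were lower, 9.56%. Since a gene at 0% on both days lies at -8.52 points on that scale, the same comparison was also made on the log odds of methylation (logit with 1 point added to each side, less the library's own median), where 1440 genes were higher, 7.07%, and 923 lower, 4.53%. The median log odds also rose and was also subtracted. A gene at 0% on both days is therefore still negative on that scale and can be called lower by subtraction alone. As a ratio to the library median, and at any size of difference, 598 were higher, 2.94%, and 446 lower, 2.19%.

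The leading genes by rise over the gene body were of varied known function. Cd180, a Toll-like receptor relative of B cells at chr13:102693547-102706631, measured 12.5%, 11.6% and 13.4% at D0 and 31.0%, 26.7% and 31.7% at D1. The rise of 17.3 ± 1.45 points (SE) had a limma adjusted p of 4.1e-09, and relative to the median it was 8.80 ± 0.782 points with an adjusted p of 3.5e-07. Chil1, a chitinase-like secreted protein, went from 21.1%, 19.8% and 22.1% to 38.5%, 33.9% and 40.02%. Ffar2, the receptor for short-chain fatty acids, went from 12.97%, 12.9% and 12.3% to 29.8%, 25.3% and 29.2%. Spic, an ETS factor of red pulp macrophages, went from 18.4%, 22.6% and 18.0% to 36.6%, 30.7% and 36.0%. In each of these genes every D1 library was above every D0 library, which the rule that named them ensured. Replicate 2 was the lowest at D1.

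Among the rest of the 12 largest rises were Higd1b (30.0% to 45.8%), Sdr9c7, a dehydrogenase of the skin barrier (14.0% to 29.6%), Thrsp, a regulator of lipid synthesis (28.4% to 43.6%), Ankrd23 of striated muscle (30.5% to 45.6%), the adhesion gene Ceacam1 (29.5% to 44.3%) and the acute-phase gene Saa4 (23.9% to 38.5%). Rpl37rt (25.3% to 40.6%) is a retrotransposed copy of a ribosomal protein gene, so its reads are uncertain. Genes of the early embryo were among the leaders too. Crxos, a homeobox gene, went from 21.4%, 19.5% and 19.03% to 34.4%, 34.2% and 37.1%. Pramel7, of the 2-cell-like and naive programmes, lies in a single window and so falls outside the ranking, which asked for 3. It went from 24.8%, 25.9% and 23.3% to 45.7%, 45.3% and 44.2%, a rise of 20.4 ± 1.82 points with a limma adjusted p of 4.1e-09. Its family is multi-copy, which leaves its mapping uncertain.

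**Figure D3:**
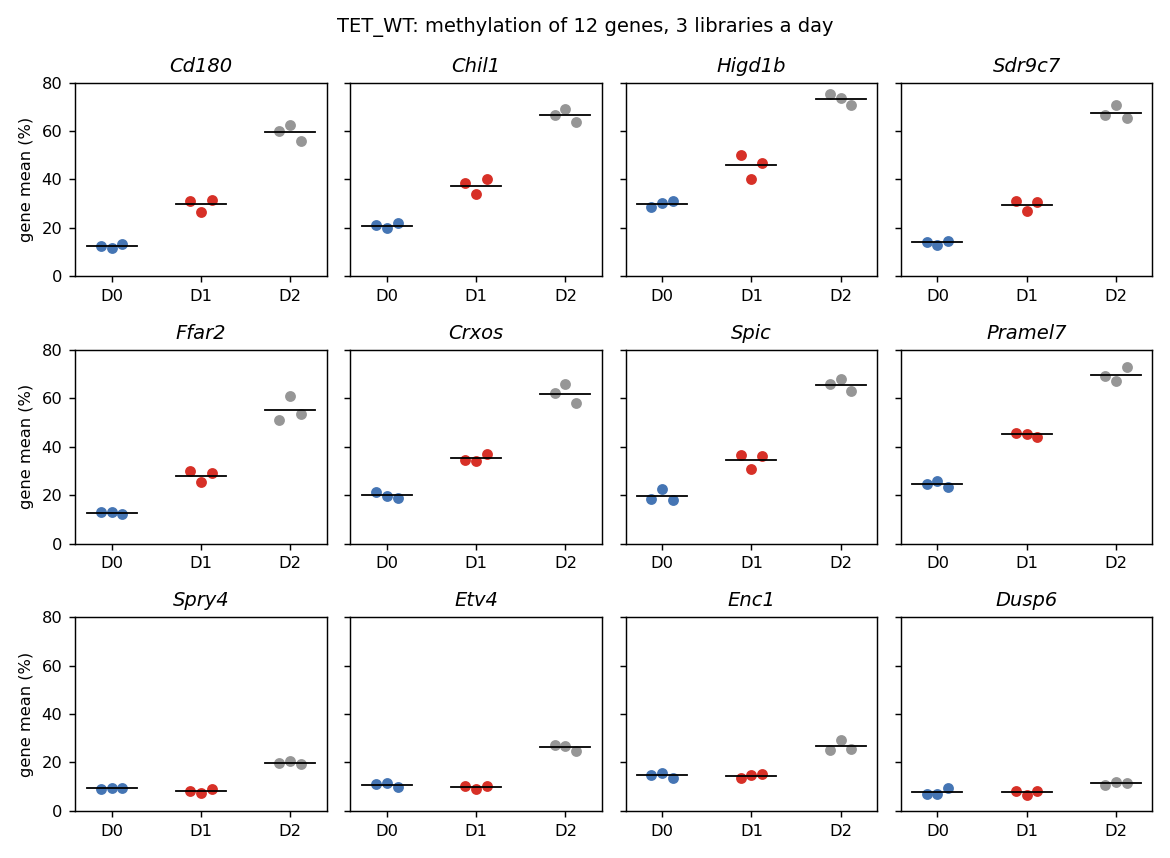
Gene means in percent (vertical axis) in the 3 TET_WT libraries of D0, D1 and D2 (horizontal axis) for 12 genes; points are libraries and bars their means. The upper 8 genes gain on both days, as Cd180 does from 12.5% to 29.8%, while Spry4, Etv4, Enc1 and Dusp6 have differences between -1.23 and -0.0528 points at D1.

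At the other end, among the 12 genes with the lowest signed difference were several that were almost unmethylated on both days, and the following did not pass the test in percent: Foxb2 (1.93% to 1.19%), the Wnt receptor Fzd7 (1.75% to 1.31%), the ribonucleotide reductase subunit Rrm2 (1.98% to 1.57%), the ribosomal protein gene Rpl13a (0.466% to 0.191%), Chchd10 of the mitochondrion (2.77% to 2.55%), the ubiquitin ligase Rnf167 (2.29% to 1.83%) and the actin regulator Pfn1 (1.04% to 0.831%). Single libraries set 2 more. Eid2 measured 8.14%, 0.845% and 0.534% at D0 and 1.27%, 0.773% and 1.28% at D1. Pcbp1, an RNA-binding protein, measured 0.250%, 6.37% and 0.0908% and then 0.202%, 0.262% and 0.298%. The days overlap in both genes, and without replicate 2 of D0 the Pcbp1 difference was 0.0837 points.

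Spry4 and Etv4 were also among these 12 genes, with D0 means of 9.40% and 10.8%. Spry4, a feedback inhibitor of FGF-ERK signalling on chromosome 18, measured 9.20%, 9.38% and 9.62% at D0 and 8.31%, 7.19% and 9.004% at D1, and all D1 libraries lay below D0. The difference of -1.23 ± 0.770 points did not pass the test in percent (limma adjusted p = 0.13), but it lay -9.76 ± 0.849 points from the shift of the median, with an adjusted p of 3.5e-07, and on the log odds scale the adjusted p was 2.6e-06. By D2 it had reached 19.8% ± 0.563. Etv4, an ETS factor induced by the same pathway, measured 11.3%, 11.3% and 9.90% and then 10.3%, 8.86% and 10.4%, with overlapping days, and stood at 26.2% ± 1.33 at D2. Its difference in percent was -0.990 ± 0.842 points (limma adjusted p = 0.26) and relative to the median -9.51 ± 0.942 (adjusted p = 1.3e-06).

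Of the 7 windows of each gene, 1 fell past the adjusted p in percent. One of the 7 Spry4 windows, inside the gene body, measured 15.1%, 14.1% and 16.3% at D0 and 7.87%, 8.49% and 8.65% at D1, a fall of -6.84 ± 1.65 points (limma adjusted p = 0.00074), and was at 14.0% ± 0.940 at D2. The Etv4 window at chr11:101767610-101770555 measured 24.0%, 26.5% and 20.7% and then 16.9%, 11.3% and 18.97%, a fall of -7.98 ± 2.64 points (limma adjusted p = 0.0083), and reached 46.3% ± 4.24. In both windows the days did not overlap. Among the 14697 genes with at least 3 windows and a level of at least 8%, a set defined after the values were seen, Spry4 and Etv4 were the lowest on the log odds scale, followed by Bola1 (9.06% to 8.71%) and Enc1, an actin-binding gene (14.7% to 14.6%). The highest were Cd180, Arrdc5 and Slc52a3.

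**Figure D4:**
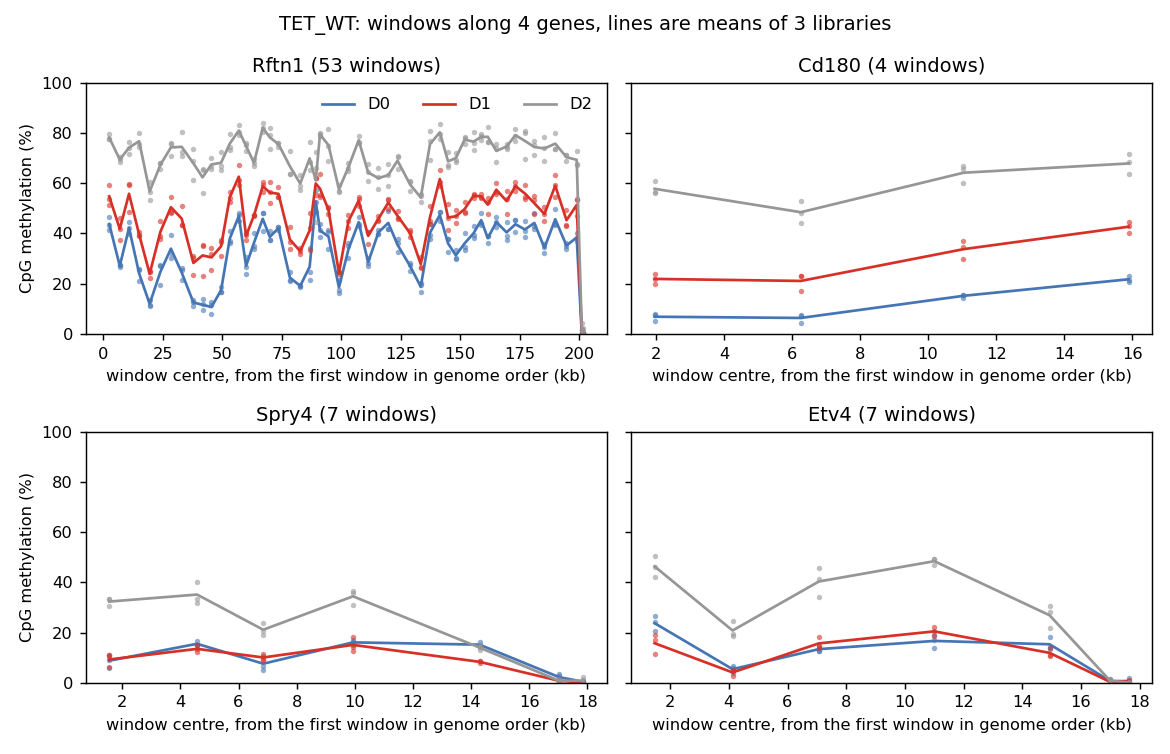
Methylation in percent (vertical axis) of each window along Rftn1, Cd180, Spry4 and Etv4 in TET_WT, placed by distance in kb from the first window (horizontal axis); points are libraries and lines their means at D0, D1 and D2. D1 lies above D0 along Rftn1 and Cd180 (4 windows), while along Spry4 and Etv4 (7 windows each) 1 window of each gene fell past the adjusted p and the other differences did not pass it.

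The gene lists below were chosen with earlier results of these data known. Genes of the FGF-ERK pathway had a median difference of 4.63 points over 29 measured genes against 7.47 over all genes. On the log odds scale 4 of the 29 were higher than the library median and 5 lower, against 7.07% and 4.53% of all genes. As a ratio to the median 2 were higher and 1 lower, against 2.94% and 2.19%. The 5 lower on the log odds scale were the phosphatases Dusp1 and Dusp6, the inhibitors Spry4 and Spred1, and Etv4. Dusp6, the ERK phosphatase, measured 6.89%, 7.06% and 9.57% at D0 and 8.35%, 6.61% and 8.36% at D1. Spred1 rose in percent, from 24.2% ± 0.243 to 30.6% ± 1.47. The adaptor Sos1 rose by 10.8 ± 1.12 points and was the only 1 of the 29 past 10 points, against 13.7% of all genes. The days overlapped in Dusp6 and did not in Spred1 or Sos1.

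Genes of LIF signalling differed among themselves. Of 20 measured, 4 rose by at least 10 points, a threshold that 13.7% of all genes passed, among them Stat3, which carries the LIF signal, from 25.4%, 26.4% and 25.7% to 39.9%, 35.6% and 40.8%, the receptor gene Lifr from 24.5%, 24.4% and 24.8% to 37.8%, 33.9% and 37.9% and the phosphatase gene Ptpn11 (27.3% to 38.0%). In Stat3 and Lifr no D1 library overlapped D0, and relative to the median they rose by 4.39 ± 0.676 and 3.44 ± 0.358 points (limma adjusted p = 2.7e-05 and 1.5e-06). Genes near 0% at D0 lay below the shift, such as Socs3 (1.17% to 3.78%), Junb (0.228% to 0.281%) and Myc (3.03% to 3.05%). Of 28 Wnt and GSK3 genes, 7 rose by at least 10 points (13.7% of all genes), among them Gsk3b, the kinase that 2i inhibits (21.3% to 31.9%), Rnf43 (18.7% to 29.9%), the co-receptors Lrp5 and Lrp6 and the target Cdx1 (15.1% to 26.8%). Their median was 8.28 points.

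Naive pluripotency genes were uneven as well. Over the 28 measured, 4 rose by at least 10 points (13.7% of all genes) and the median was 3.803. On the log odds scale 11 were higher and 1, Sox2, was lower, against 7.07% and 4.53% of all genes. Sox2 was near 0% on both days, where a lower call can come from the subtraction alone. Tfcp2l1, a core factor of the naive state, measured 10.6%, 10.5% and 12.1% and then 23.6%, 19.6% and 24.3%. Nr5a2, an orphan nuclear receptor, rose from 23.7% ± 0.376 to 34.7% ± 2.17, Pecam1 from 18.7% ± 0.190 to 30.2% ± 2.32 and Tcl1 from 21.2% ± 0.626 to 32.4% ± 1.63. Prdm14, a repressor of de novo methylation, measured 8.45%, 8.27% and 8.39% and then 17.4%, 15.5% and 17.9%, so its level rose by 8.59 ± 1.06 points and its log odds more than the library's (limma adjusted p = 1.3e-05). Esrrb rose by 7.57 ± 1.29 points. The almost unmethylated genes Sox2 (0.204% to 0.115%), Klf2 (0.196% to 0.634%), Dppa5a (0.233% to 0.699%) and Klf4 (0.199% to 1.08%) stayed near 0.

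Formative and primed epiblast genes, which become active as cells leave the naive state, had a median of 3.64 points over 29 genes. Of these, 1 rose by at least 10 points, Tead2 (16.7% to 27.2%), against 13.7% of all genes. Fgf5, a marker of the formative state, rose from 21.6%, 22.6% and 19.8% to 26.5%, 25.5% and 27.5%, or by 5.21 ± 1.05 points, which is -3.32 ± 0.879 relative to the median (limma adjusted p = 0.0041). Of 27 genes of the methylation machinery 1 rose by at least 10 points, again against 13.7% of all genes. That gene was Dnmt1, the maintenance enzyme, which went from 23.3%, 23.5% and 24.0% to 36.2%, 31.9% and 35.7%. Dnmt3l, the cofactor of the de novo enzymes, rose only from 21.9%, 21.6% and 21.9% to 27.2%, 25.1% and 25.6%. Tet1 rose from 13.3% ± 0.488 to 19.3% ± 1.81, Tet2 from 10.0% to 17.7% and Uhrf1 from 7.62% ± 0.311 to 14.5% ± 1.91. Relative to the median Tet1 and Uhrf1 were lower, but on the log odds scale the direction of Tet1, Tet2 and Uhrf1 turned to higher, with an adjusted p of 0.78 for Tet1.

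Of 47 germline genes 15 rose by at least 10 points, against 13.7% of all genes, with a median of 8.31 points. On 2 other scales they did not lead: 3 were higher on the log odds scale, against 7.07% of all genes, and 1 as a ratio to the median, against 2.94%. Less the library median, their list median of -0.21 points was the highest of the 15 lists, with all genes at -1.06. That ranking restates the one in percent, since the same 8.52 points come off every gene. Relative to the median 10 of the 47 were higher at any size and 8 lower, against 2375 and 6954 of 20358 genes. Tex19.2, a germline and placenta gene, led (28.4%, 30.3% and 28.7% to 45.7%, 39.9% and 43.0%), and Nanos3 of the primordial germ cells (19.4% to 32.0%), Piwil2 of the piRNA pathway (31.7% to 43.1%), Stra8 (25.6% to 36.8%) and Sycp3 of the meiotic chromosome axis (27.4% to 38.6%) were also among them. Dazl, an RNA-binding protein of germ cells, rose least in the list, from 18.0% ± 0.785 to 21.0% ± 1.04. Of 46 imprinted genes 5 passed 10 points, a share near the 13.7% of all genes, led by Rtl1 (35.6% to 47.6%) and Plagl1 (14.0% to 25.1%), with a median of 7.01. The 2-cell-like list, multi-copy and uncertain, had 6 of 24, with a median of 8.20.

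Among lineage genes the medians ranged widely. Haematopoietic and endothelial regulators had 5 of 48 past 10 points, near the 13.7% of all genes that also stands behind the counts that follow, and a median of 6.72. Kit, the stem cell factor receptor, measured 21.1%, 21.0% and 23.1% and then 36.7%, 32.1% and 36.8%, and rose by 4.98 ± 0.535 points relative to the median (limma adjusted p = 1.6e-06). Etv6, an ETS repressor of blood stem cells, measured 25.9%, 26.3% and 26.3% and then 40.6%, 36.4% and 40.1%. Csf1r, Csf3r and Eng were the others, while Lyl1 (8.21% to 8.96%) and Cebpa (5.05% to 6.47%) had small differences. The days did not overlap in Kit or Etv6. Neuroectoderm genes had 0 of 28 past 10 points in limma (16 at any size) and a median of 1.53, and Hox genes 0 of 39 (20 at any size) and a median of 1.63. The low Hox median depends on the scale, as the median Hox gene was at 4.50% at D0. On the log odds scale 2 Hox genes were higher and 3 lower, against 7.07% and 4.53% of all genes. The median neuroectoderm gene was at 4.66% at D0, and on that scale 0 of the 28 were higher and 8 lower. As a ratio to the median 0 of the 28 were higher and 0 lower, against 2.94% and 2.19% of all genes. The low neuroectoderm values therefore depend on the scale too. Mesoderm and endoderm genes had 2 of 28 and a median of 4.52, genes of primitive endoderm, trophoblast and fibroblasts 4 of 29 and a median of 6.92, and ubiquitously expressed genes 3 of 26 and a median of 5.50. Elf3, an epithelial ETS factor of the trophoblast list, rose from 1.94%, 2.13% and 2.70% to 14.0%, 11.2% and 14.2%.

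**Figure D5:**
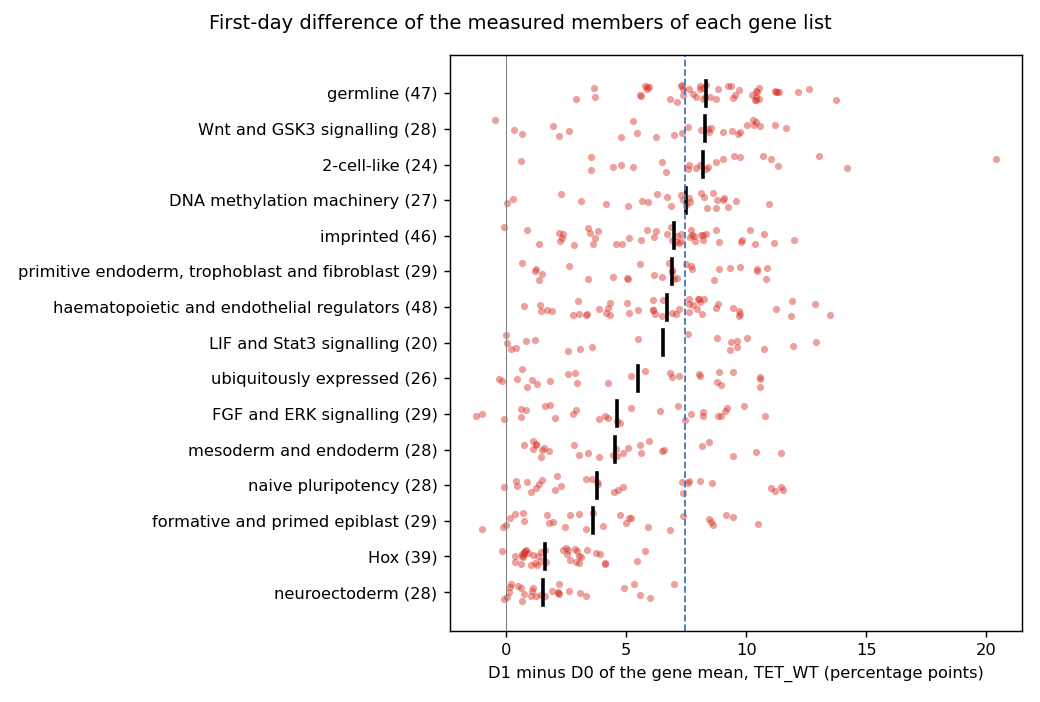
Difference D1 minus D0 of the gene mean in percentage points (horizontal axis) for each measured member (points, moved apart vertically for display) of 15 gene lists (vertical axis, number of members in brackets); black bars are list medians and the dashed line is the median of all genes, 7.47. Neuroectoderm and Hox genes lie lowest, at medians of 1.53 and 1.63 points, and germline genes highest, at 8.31.

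The first day of TET_WT was then set against the same day in the other lines, by a limma test of the difference itself. Against TET_KO, whose median started far higher, at 55.8%, and reached 64.2%, no window differed by 10 points in percent (0% in each direction), although 103 gained more and 4 gained less without replicate 2 of TET_WT D1. At any size 0 windows passed the adjusted p, and 30785 had an unadjusted p under 0.05, 7.29%. Relative to the median, 57 windows gained more in TET_WT, 0.0135%, and 7 gained less, 0.00166%. These counts moved with single libraries: the larger gains numbered between 9 and 113 as each of the 12 libraries was left out in turn, and the smaller gains between 3 and 18. The window at chr16:58648871-58654432 was among them, with 27.02 points more than in TET_KO relative to the median (adjusted p = 0.032), as was the Tulp4 window on chromosome 17 with 19.8 points (adjusted p = 0.017). Both windows were also picked as largest rises in TET_WT, and that rise is part of the difference tested.

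Over gene bodies, 1792 genes gained more in TET_WT than in TET_KO relative to the median, 8.8%, and 230 gained less, 1.13%, while in percent 0 genes passed in either direction in limma and 1300 had an unadjusted p under 0.05, 6.39%. Cd180 gained 6.84 ± 1.11 points more (adjusted p = 0.0013), Kit 6.29 ± 0.757 (adjusted p = 0.00027), Lifr 3.69 ± 0.507 (adjusted p = 0.00047) and Pramel7 14.1 ± 3.08 (adjusted p = 0.0075). These 4 calls held as each of the 12 libraries was left out, with adjusted p from 5.35e-05 to 0.0223. Spry4 gained less, by a difference of -4.26 ± 1.201 points (adjusted p = 0.028), and Etv4 differed by -4.57 ± 1.33 (adjusted p = 0.033). Those calls were weaker: leaving out 1 library ended the call of Spry4 in 7 of 12 cases and that of Etv4 in 8, with adjusted p from 0.0177 to 0.0829. All these genes were picked with their TET_WT difference known, and that difference is part of the one tested. Leaving out libraries does not undo that choice. By list, 7 of 28 Wnt and GSK3 genes, 5 of 28 naive genes and 3 of 20 LIF genes gained more in TET_WT relative to the median, and no Hox gene differed in either direction.

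Against DNMT_WT, which began almost without methylation, 99 windows gained more in TET_WT by at least 10 points, 0.0235%, and 29378 gained less, 6.96%. The numbers relative to the median were 707, 0.167%, and 14097, 3.34%. Without replicate 2 of D1 in TET_WT, the percent counts were 247 and 15693. Of the 1187 windows that moved ahead of their library in TET_WT, 691 (58.2%) did so in DNMT_WT, where they made up 1.88% of 36692 such windows (8.69% of all windows), and 1 did so in TET_KO, of 57 such windows (0.0135%). At 5 points relative to the median, 109005 windows were higher in DNMT_WT (25.8%) and 1932 in TET_KO (0.458%). Of the 1187 windows, 1035 (87.2%) passed that cut in DNMT_WT and 23 (1.94%) in TET_KO. Over gene bodies, TET_WT gained more than DNMT_WT in 98 genes in percent (0.481%) and less in 9575 (47%), and relative to the median the counts were 2020 (9.92%) and 7536 (37%). Across windows the relative first-day change in TET_WT had a Pearson r of 0.702 with that of DNMT_WT and of 0.506 with that of TET_KO (Spearman rho 0.714 and 0.435). The correlations are descriptions across 422141 windows, which are not independent and share their CpG density.

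The lines also differed in how the gain depended on window length. Among windows at 20 to 30% in TET_WT at D0, TET_KO gained 8.34 points at 1 to 3 kb and 7.84 at 8 to 16 kb, and DNMT_WT 14.9 and 6.10, where TET_WT had 10.2 and 6.80. Less each line's median shift, TET_WT gained 1.75 points more than TET_KO in the short windows and -1.11 in the long ones, and -2.77 and 2.69 against DNMT_WT, each past the adjusted p in limma. In percent, neither difference from TET_KO passed (1.81 ± 1.36 and -1.04 ± 1.54 points, limma adjusted p = 0.97 for each). Against DNMT_WT the short windows passed in percent (-4.76 ± 1.36, adjusted p = 0.0048) and the long ones did not (0.698 ± 1.54, adjusted p = 0.68). The windows were grouped by the level of TET_WT, which the other lines did not share.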

How the data were processed

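Whole-genome bisulfite libraries of 9 groups, 3 libraries each, were used as deposited: the authors gave a percent methylation for each window and library, with no read counts. Per the submitters' processing notes, the tools included Trim Galore 0.6.6, cutadapt 2.3 and Bismark 0.23.0, with the GRCm38 build; how reads were filtered and windows filled is not given in the sources used here. Bisulfite reads do not separate methylcytosine from hydroxymethylcytosine. All 27 columns of values were mapped to a labelled sample, and 0 were left unused.

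Autosomal windows with a value in every library were kept. Gene means, 1 Mb bins with at least 20 windows, and class means were computed from them. Differences in percent, and after each library's median over windows was subtracted, were tested with limma 3.58.1 in R 4.3.3 (all 9 groups in 1 linear model, empirical Bayes with a trend), with Benjamini-Hochberg adjustment over all windows or genes; the residual scatter is thus shared by all 27 libraries. The R package data.table (version 1.17.8), Python 3.11.15, numpy 2.4.6, pandas 2.3.3 and matplotlib 3.10.9 were used. Gene bodies and starts came from RefSeq on GRCm38.p6.

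Named genes were the 12 with the largest and the 12 with the lowest signed difference among genes with at least 3 windows, past the adjusted p relative to the median, whose libraries less their medians did not overlap; predicted genes were counted and not named. Named windows were the 12 largest rises and 12 largest falls in percent without overlap and the 8 largest excesses of the first step. In each list up to 4 members farthest from the median shift were named, and the Tet, Dnmt and Uhrf1 genes always. Other list members, and the windows set against TET_KO, were named after their values were seen. The comparisons, members and gene lists were chosen with earlier results of these data known. Of 473 listed genes, 458 were measured.

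On 20000 simulated windows for the D0 to D1 comparison in percent, 18 of 50 windows changed by 10 points, 49 of 50 changed by 15 and 49 of 50 changed by 20 passed both thresholds, as did 0 of 50 changed by 5, and 11 of 19800 unchanged windows passed the adjusted p. Few simulated windows changed, whereas 82.2% of the real windows rose. Noise was drawn separately for each window, so no shift of a whole library was simulated. The rates describe that setting and not the real comparison. Alternatives covered the scale, the centring, the minimum difference, the window set, the libraries in the model and leaving out each library.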

Additional observations from a re-analysis of the deposited data

Results flagged for a closer look

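Some first-day changes of TET_WT differed from those of the other lines in a direct limma test of the difference. Against TET_KO in percent, 0 windows and 0 genes passed, with 30785 windows and 1300 genes at an unadjusted p under 0.05. Relative to the median, 57 windows gained more and 7 gained less than in TET_KO, and 707 gained more and 14097 gained less than in DNMT_WT. In percent, 99 gained more and 29378 gained less than in DNMT_WT. For genes picked with their TET_WT difference known, TET_WT minus TET_KO, relative to the median, was 6.84 points for Cd180, 14.1 for Pramel7, -4.26 for Spry4 and -4.57 for Etv4, and the last 2 calls were lost in 7 and 8 of 12 cases when 1 library was left out. Among windows at 20 to 30% at D0 it was 1.75 points at 1 to 3 kb and -1.11 at 8 to 16 kb, and TET_WT minus DNMT_WT was -2.77 and 2.69. In percent, only the difference from DNMT_WT at 1 to 3 kb passed the adjusted p.

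The X chromosome was outside the comparisons. Its 18560 complete windows had a mean of 27.3% ± 0.403 at D0 and 34.4% ± 1.61 at D1 (SD, n = 3), a rise of 7.12 points.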

How the results depend on the processing

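Read depth is not known, so neither counting error nor a detection limit could be given, and 3 libraries a group allow no exact p below 0.1. Of 2996 values of 236 named results under an alternative, 2690 kept their direction and side of the threshold, 240 lost the call, 34 gained it and 32 turned direction; the cause was not tested.

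On the logit scale by adjusted p alone, 326708 windows were higher and 203 lower in percent, 3723 and 362 relative to the median, and genes numbered 19581 and 5 in percent and 1440 and 923 relative to the median. With a minimum difference of 0 points, windows numbered 346986 and 165 in percent and 21548 and 51889 relative, and genes 19377 and 3 and 2375 and 6954. At 5 points windows numbered 324782 and 61, and 20341 and 44108 relative, and 16429 genes were higher. At 10 points 4 genes were higher and 8 lower relative to the median. At 20 points windows numbered 412 and 1, and 3 and 21 relative, and genes 2 and 0, and 0 and 1 relative. Centred on the library mean, 1976 windows and 187 genes were higher. As a ratio to the median, 281 windows were higher and 50 lower, and 43 genes were lower. With windows of 1 to 16 kb, 4479 genes rose in percent and 1192 were lower relative to the median. By the dense end of the gene, 511 were higher and 10370 lower relative to the median, and 0 fell in percent, as without the trend. The first step exceeded the second in 45245 windows and was smaller in 7625 relative to the median, and exceeded it in 112 with the 9 TET_WT libraries alone. Bins of 500 kb gave 668 higher and 2816 lower.

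Leaving out each library in turn gave a mean rise of 7.35 to 8.82 points, 100631 to 161214 windows higher and 34 to 47 lower in percent, 1311 to 2620 and 684 to 2725 relative, 1748 to 5627 genes higher and 0 to 1 lower in percent, and 98 to 135 and 1750 to 2502 relative. The first step was larger in 184 to 334 windows and smaller in 185778 to 280710, and bins numbered 264 to 304 higher and 1375 to 1479 lower. Against TET_KO the ranges were 0 to 103 larger and 0 to 4 smaller in percent and 9 to 113 and 3 to 18 relative, and against DNMT_WT 37 to 247 and 15693 to 36361 in percent and 482 to 1054 and 10521 to 14507 relative. The upper values of 2620, 2725, 5627, 334, 103 and 247 came without replicate 2 of TET_WT D1. The gene that fell by 10 points was lost without replicate 1 or 2 of either day.

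With the replicate number as a block, 118012 windows rose and 27 fell in percent, 1188 and 752 relative, and 2794 genes rose and 0 fell. Same-numbered D0 and D1 libraries had correlations of -0.0149, -0.00947 and 0.00556 in their deviations, and not every library correlated best with its own number. Pairing by number was thus not detected, though such correlations cannot exclude it.

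In percent Pcbp1 ranged from -3.05 to 0.0837 as each library was left out, the latter without replicate 2 of D0, and was 0.319 with windows of 1 to 16 kb, and by the dense end Mbd3 was -0.402, Gfi1 -0.412, Twist1 -0.575 and Gnasas1 -6.25. Relative to the median on the logit scale, Tet1 turned to 0.0144, Tet2 0.208, Uhrf1 0.258 and Klf4 0.150. With windows of 1 to 16 kb Uhrf1 was 0.236 and Sp5 0.406, and by the dense end Tet2 was 6.92 and Tet3 -8.36. As a ratio to the median, Tet1 was 1.23, Tet2 3.67, Uhrf1 3.72, Klf2 0.327, Dppa5a 0.328, Klf4 0.703, Socs1 0.260, Spry2 0.312, Fzd5 0.307, Sp5 0.378, Utf1 0.0947, Gadd45b 0.209, Mbd3 0.369, Sox18 0.194, Tfap2a 0.595, Mkrn3 0.284, Hoxc11 0.200 and Ppia 0.0237.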
